A study of Mus musculus with 6 samples.

Results

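The Polycomb complex genes described here are 10 genes chosen by name, Ezh1, Ezh2, Eed, Suz12, Jarid2, Bmi1, Ring1, Rnf2, Cbx7 and Cbx8, each of which matched 1 row among the 53465 gene rows of the deposited table. They were measured by poly(A) RNA sequencing in the Nras(G12D)/MLL-AF9 line of mouse leukaemic cells, labelled as blood, which carries the mutant Nras allele and the fusion of Kmt2a with Mllt3. The OMP group had 3 libraries from cells kept for 6 days with 100 µM OMP (4'-O-methylpyridoxine, an analog of vitamin B6 that inhibits pyridoxal kinase). The Vehicle group had 3 libraries from cells given an equal volume of PBS, with the same day 6 harvest named in the library titles. All cells grew in RPMI medium with serum and the cytokines SCF, IL-3 and IL-6. A single line was used, and the labels do not say whether it is 1 clone or whether replicates came from separate cultures, so the spread behind each p-value is that of these libraries and may be technical.

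Polycomb proteins keep genes silent through marks on histones. PRC2 (Polycomb repressive complex 2) holds Ezh2 or its paralogue Ezh1 as the enzyme that methylates H3K27, with Eed and Suz12 as the core partners the enzyme needs. PRC1 (Polycomb repressive complex 1) holds Ring1 or Rnf2 as the ligase that attaches ubiquitin to histone H2A, a PCGF protein such as Bmi1 as partner of the ligase, and in its canonical form a CBX protein such as Cbx7 or Cbx8 that reads methylated H3K27. In MLL-fusion leukaemia both complexes are known for their hold on the Cdkn2a locus, and Ezh2 levels are known to be high in dividing cells, where E2F transcription factors drive its gene.

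The promoters of Ezh2 and Suz12 are shown because they belong to 2 of the members that fell with OMP and hold a searched E2F motif. The motifs were TTTCCCGC and TTTGGCGC, read on either strand (GCGGGAAA and GCGCCAAA on the other), and capitals mark the match. Both sequences are from RefSeq on GRCm38.p6, running 5′ to 3′ along the gene from 250 bases before its RefSeq start to 50 bases after it. The GENCODE span of Ezh2 used below reaches 47595341, so the Ezh2 window lies inside that span and not upstream of its start. The Ezh2 promoter is chr6:47594981-47595280 on the minus strand and the Suz12 promoter is chr11:79992856-79993155 on the plus strand.
Ezh2: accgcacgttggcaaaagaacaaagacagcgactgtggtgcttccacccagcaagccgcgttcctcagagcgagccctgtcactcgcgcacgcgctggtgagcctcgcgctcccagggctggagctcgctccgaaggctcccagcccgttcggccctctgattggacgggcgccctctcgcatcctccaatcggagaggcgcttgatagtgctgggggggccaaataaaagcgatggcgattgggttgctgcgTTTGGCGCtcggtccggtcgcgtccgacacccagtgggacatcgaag
Suz12: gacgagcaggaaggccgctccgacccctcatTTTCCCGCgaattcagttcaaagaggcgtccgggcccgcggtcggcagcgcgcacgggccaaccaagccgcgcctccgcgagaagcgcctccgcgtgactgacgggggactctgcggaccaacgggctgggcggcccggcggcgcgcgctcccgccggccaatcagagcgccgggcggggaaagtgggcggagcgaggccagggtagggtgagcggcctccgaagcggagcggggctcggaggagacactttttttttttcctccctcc
TTTGGCGC stood at bases 254 to 261 of the Ezh2 promoter, and TTTCCCGC at bases 32 to 39 of the Suz12 promoter, with no overlap between motifs. All 10 members had a promoter entry, 11 entries in all, and these 2 were the only members with a match. Of 32851 promoters of the same length, 1.07% held TTTCCCGC, 0.514% held TTTGGCGC and 1.56% held either. A match describes letters in this window and does not show binding.

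Ezh2, Suz12, Jarid2 and Rnf2 fell with OMP, and none of the 10 members rose. Ezh2 fell most, to 0.56-fold of its Vehicle level, while the other 3 stood at 0.74-fold to 0.79-fold. The 6 members that did not pass the test had fitted folds between 0.97 and 1.13. Values are RPKM (reads scaled by gene length and by library size) as deposited. The test was limma on log2(RPKM + 0.5) over the 11020 genes that reached 1 RPKM in 3 or more libraries, with a Benjamini-Hochberg adjusted p under 0.05 as the threshold, and all 10 members passed that filter. Fold changes come from this log2 scale, on which the change of low genes is understated. Across all genes tested 43% passed, 27.5% lower and 15.4% higher with OMP, so 4 of 10 members is a share near that background. The groups did not overlap for those 4 members, against 54.5% of all genes tested. The median log2 fold change was -0.03 over the 10 members and -0.09 over all genes tested.

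**Figure D1:**
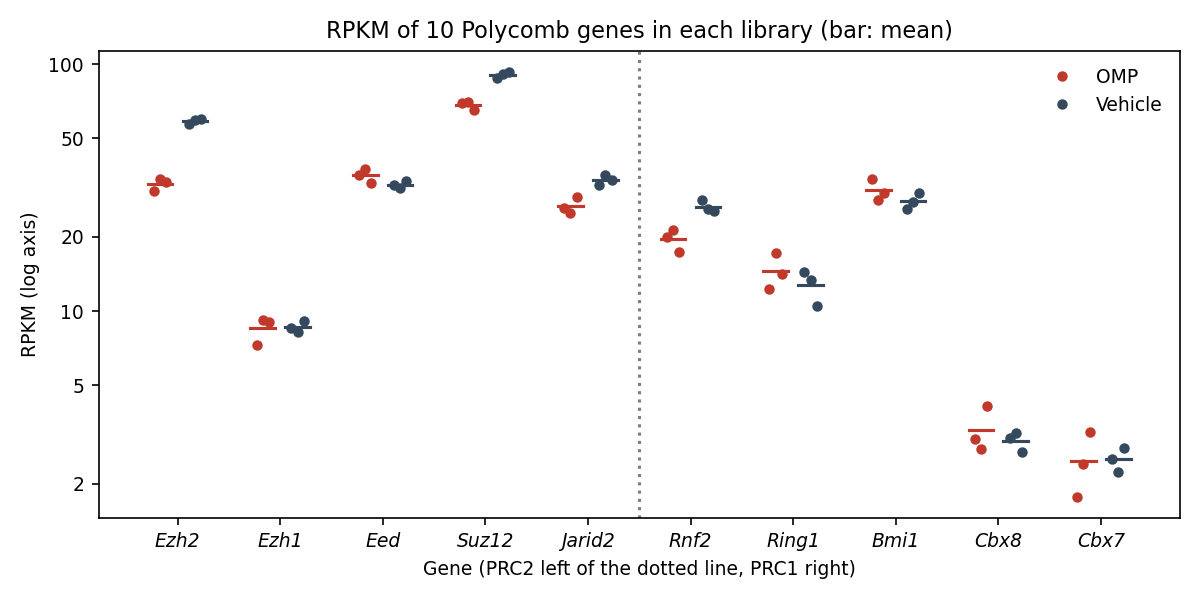
RPKM on a log axis for each of the 10 genes, with 1 point per library, OMP left of Vehicle, and a bar at each group mean (n = 3). The groups are apart for Ezh2, Suz12, Jarid2 and Rnf2 and overlap for the other 6 genes.

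Library totals recovered from the RPKM steps were 3494986 to 3720117 reads in OMP and 3737843 to 4247619 reads in Vehicle. All 6 libraries held the myeloid genes Ptprc, Spi1, Cebpa and Csf3r, whose summed level with Itgam left out was 304.5 to 316 RPKM in OMP and 281 to 288 RPKM in Vehicle, with 2 of the 4 higher and 2 lower in OMP. Defining genes of erythroid, B and T cells were all under the filter, with no single value above 0.959 RPKM, and Hbb-bs, Pax5, Ms4a1, Cd3e, Cd3g, Cd4 and Cd8a were at 0. Of 4 megakaryocyte genes, summed to 3.25 to 3.58 RPKM in OMP and 1.12 to 1.44 RPKM in Vehicle, only Gp1bb met the filter, through the OMP libraries alone, with 1.86, 1.83 and 1.16 RPKM in OMP and 0.579, 0.529 and 0.637 RPKM in Vehicle, so its difference is given as values and not as a test. Pf4 was at 0 throughout. In bulk RNA, fewer cells of a type and less RNA per cell cannot be told apart. The split of calls over all genes depended on scaling, with 1702 higher and 3033 lower as deposited, 2370 and 2237 with median-of-ratios scaling, 2244 and 2321 with quantile normalization and 1221 and 3982 with rescaling to TPM.

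Among the enzymes of PRC2, Ezh2 was lower with OMP and its paralogue Ezh1 did not pass the test. Ezh2 (ENSMUSG00000029687, GRCm38 chromosome 6, 47530139 to 47595341) had 30.7, 34.1 and 33.5 RPKM in OMP libraries, against 57.3, 59.2 and 60.0 RPKM in Vehicle libraries. Every OMP library was below every Vehicle library, by far more than the spread within either group. The log2 fold change was -0.84 ± 0.05 (standard error; limma adjusted p = 1.23e-05), and 4.43% of the genes tested had a lower one. These values rest on 984 reads in OMP and 1982 reads in Vehicle. Ezh1 (chromosome 11, 101191115 to 101226463), the weaker methyltransferase that persists in resting cells, had 7.28, 9.17 and 9.07 RPKM in OMP, against 8.52, 8.19 and 9.12 RPKM in Vehicle. The Ezh1 groups overlapped, and the log2 fold change was -0.02 with a 95% interval from -0.27 to 0.22 (limma adjusted p = 0.884). Its sign turned to 0.06 with median-of-ratios scaling and to 0.09 with quantile normalization, still without a call.

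In the ratio of these paralogues the scaling of a library cancels. Ezh2 stood at 4.22, 3.72 and 3.69 times the RPKM of Ezh1 in OMP libraries, against 6.73, 7.23 and 6.58 times in Vehicle libraries. The log2 ratio was 1.95 ± 0.11 in OMP and 2.77 ± 0.07 in Vehicle (SD, n = 3 each), a difference of -0.82 (two-sided exact permutation test, p = 0.1, the smallest that 3 against 3 libraries allow). The summed level of both genes was 38.0 to 43.3 RPKM in OMP and 65.8 to 69.1 RPKM in Vehicle.

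Of the core partners of the enzyme Suz12 fell, and Eed did not pass the test in either direction. Suz12 (chromosome 11, 79993106 to 80034123), which holds the complex together, was the most abundant member in both groups at 69.3, 70.4 and 64.9 RPKM in OMP, against 87.9, 91.2 and 92.9 RPKM in Vehicle. The groups were apart, with a change on the log2 scale of -0.41 ± 0.05 (standard error; limma adjusted p = 0.000232) from 3208 and 4793 reads. Eed (chromosome 7, 89954654 to 89980983), which binds methylated H3K27 and stimulates the enzyme, had 35.7, 37.5 and 33.0 RPKM in OMP, against 32.5, 31.5 and 33.5 RPKM in Vehicle. For Eed 1 OMP library lay within the Vehicle range and the others above it, and the log2 difference of 0.12 (95% interval -0.02 to 0.26) did not pass (limma adjusted p = 0.136). Under median-of-ratios scaling Eed was called, with 0.21 on the log2 scale (limma adjusted p = 0.0225).

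Ratios within a library put these differences side by side. Ezh2 had 0.86, 0.912 and 1.01 times the RPKM of Eed in OMP, against 1.76, 1.88 and 1.79 times in Vehicle. Set against Suz12, Ezh2 had 0.443, 0.485 and 0.516 times its RPKM in OMP and 0.652, 0.649 and 0.645 times in Vehicle. The log2 ratio differed by -0.97 for Ezh2 over Eed and by -0.43 for Ezh2 over Suz12, and neither ratio overlapped between the groups (exact permutation p = 0.1 for each). Over the 5 ratios computed, the adjusted p was 0.125 for each of the 4 that did not overlap. In OMP the order of mean RPKM was Suz12, then Eed, Ezh2, Bmi1 and Jarid2, each overlapping the next, then Rnf2, Ring1 and Ezh1, each apart, and last Cbx8 and Cbx7, which overlapped. In Vehicle the order was Suz12 and Ezh2, each apart, then Jarid2 and Eed, which overlapped, Bmi1 and Rnf2, which overlapped, Ring1 and Ezh1, each apart, and Cbx8 and Cbx7, which overlapped.

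**Figure D2:**
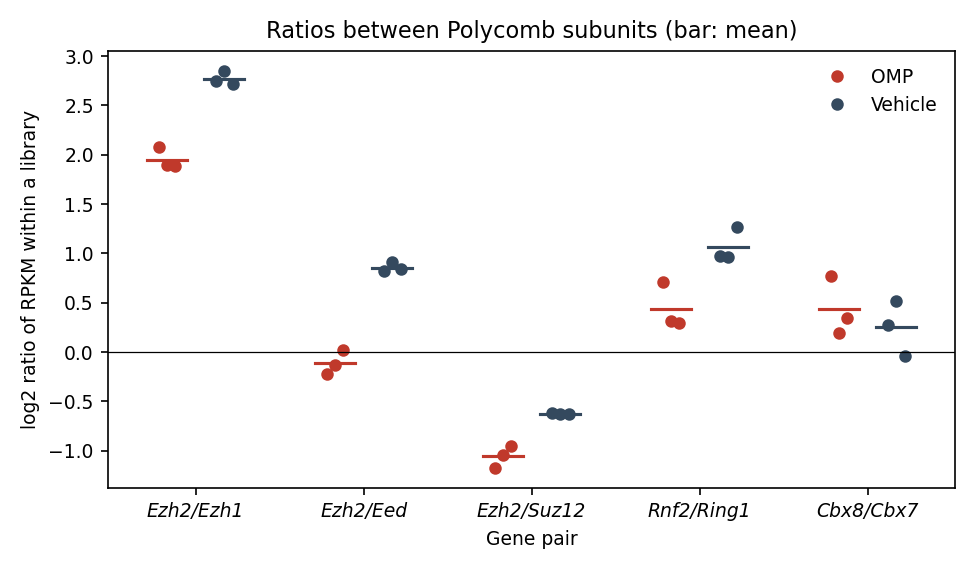
Log2 ratio of RPKM between pairs of Polycomb genes within each library, OMP left of Vehicle, with a bar at each group mean (n = 3). The OMP libraries are below the Vehicle libraries for 4 of the 5 pairs and overlap with them for Cbx8 over Cbx7.

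Jarid2 (chromosome 13, 44729474 to 44921643), an accessory subunit that helps to bring PRC2 to chromatin, had 26.1, 25.0 and 29.1 RPKM in OMP, against 32.3, 35.5 and 34.0 RPKM in Vehicle. The OMP libraries were all below the Vehicle libraries, with a change on the log2 scale of -0.34 ± 0.07 (standard error; limma adjusted p = 0.00459). The deposited RPKM of Jarid2 was scaled to a transcript of 5997 bp, while its longest annotated transcript had 8353 bp. Its level against other genes therefore depends on that choice. The same limit holds for Ring1 (2034 bp used, longest 2552 bp) and Cbx7 (3388 bp used, longest 6057 bp).

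The ligases of PRC1 showed a fall of Rnf2 and no call for Ring1. Rnf2 (chromosome 1, 151458004 to 151500955), also called RING1B, the main ligase in many cell types, had 20.02, 21.4 and 17.4 RPKM in OMP, against 28.1, 26.0 and 25.4 RPKM in Vehicle. No OMP library reached the Vehicle range, and the log2 fold change was -0.43 ± 0.08 (standard error; limma adjusted p = 0.00361). Ring1 (chromosome 17, 34020792 to 34024680) had 12.2, 17.2 and 14.1 RPKM in OMP, against 14.3, 13.3 and 10.5 RPKM in Vehicle. The Ring1 groups overlapped, with a log2 fold change of 0.18 (95% interval -0.15 to 0.51, limma adjusted p = 0.344). Rnf2 stood at 1.64, 1.245 and 1.23 times the RPKM of Ring1 in OMP and at 1.96, 1.95 and 2.42 times in Vehicle, a difference of -0.63 in the log2 ratio (exact permutation p = 0.1). Rnf2 shares 158 exon bases with Trmt1l on the opposite strand, and the strand setting of the counting is not given in the sources used here. Trmt1l itself had a mean of 16.7 RPKM in OMP and 17.4 RPKM in Vehicle.

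Bmi1 (chromosome 2, 18677018 to 18686629), the PCGF subunit known for silencing Cdkn2a and for leukaemic self-renewal, had 34.2, 28.0 and 30.1 RPKM in OMP, against 25.9, 27.5 and 30.1 RPKM in Vehicle. The groups overlapped, and the log2 fold change of 0.14 (95% interval -0.05 to 0.34) did not pass (limma adjusted p = 0.212). It was above 0 under every alternative run, from 0.06 to 0.23, and was called in none. A near-identical gene, Gm5946, matched 2658 bases of Bmi1 at 96.99% and held 1 read in each of 2 libraries and 0 in the others.

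Cbx7 and Cbx8, chromodomain proteins that tie PRC1 to methylated H3K27, were the lowest members. Cbx8 (chromosome 11, 119036305 to 119040969) had 3.04, 2.75 and 4.13 RPKM in OMP, against 3.06, 3.21 and 2.70 RPKM in Vehicle. Cbx7 (chromosome 15, 79915807 to 79971119) had 1.77, 2.41 and 3.25 RPKM in OMP, against 2.53, 2.24 and 2.78 RPKM in Vehicle. For both genes the OMP libraries spread wider than the Vehicle libraries and enclosed or overlapped them. With 128 and 129 reads for Cbx8 and 91 and 103 reads for Cbx7, the 95% intervals of the log2 fold change ran from -0.28 to 0.51 and from -0.53 to 0.45, so for Cbx7 a fall of the size seen for Jarid2 was not detectable at this depth. Cbx7 also shares 100 exon bases with Apobec3 on the opposite strand, a gene with a mean of 24.9 RPKM in OMP and 33.1 RPKM in Vehicle.

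Other genes of the Polycomb pathway, 43 listed by role, moved in both directions. Of 40 tested 5 rose and 13 fell, beside 15.4% and 27.5% of all genes tested, and their median log2 fold change was -0.08. The 13 include Phc1, which met the filter only through the Vehicle libraries, where it was higher, and which is given below as values and not as a test. This split moved with scaling as that of all genes did, with 7 higher and 11 lower under median-of-ratios scaling, 8 and 9 under quantile normalization and 5 and 16 with rescaling to TPM. Mtf2, Pcgf2, Bcorl1 and E2f6 are named because they belong to small counts of called genes and were chosen after their values were seen.

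**Figure D3:**
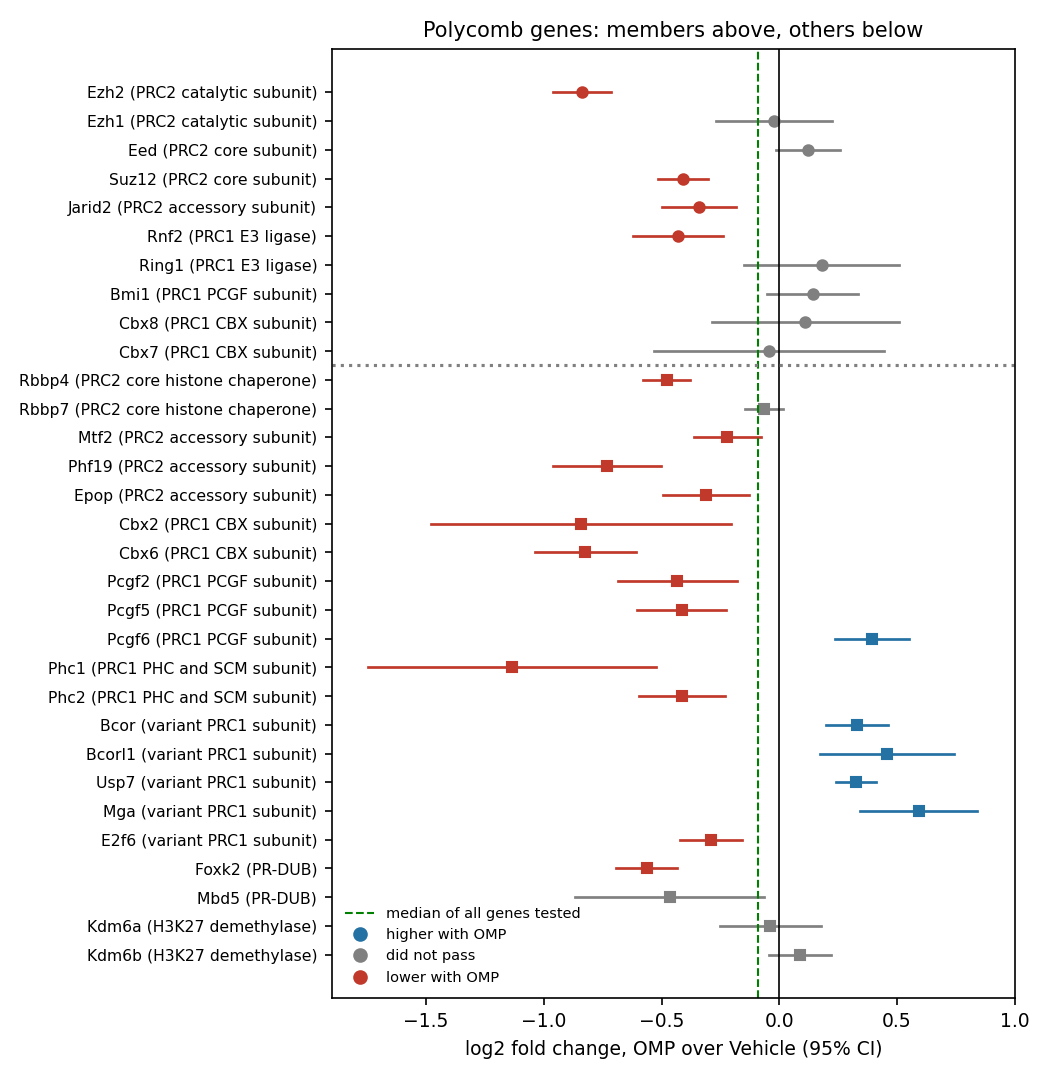
Log2 fold change of OMP over Vehicle with its 95% interval for the 10 members (circles) and for other named Polycomb genes (squares), coloured by whether the gene was lower, higher or did not pass, with a dashed line at the median of all genes tested. The 4 called members are left of 0, and the 5 called genes right of 0 are Pcgf6, Bcor, Bcorl1, Usp7 and Mga. Phc1, coloured as lower, met the filter through the Vehicle libraries alone, so its point and interval are not read as a test.

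Among other PRC2 genes 4 fell and none rose, beside 27.5% lower and 15.4% higher among all genes tested. Rbbp4, a histone chaperone of the core, had 80.0, 82.0 and 80.4 RPKM in OMP, against 115 to 116 RPKM in 2 Vehicle libraries and 107 RPKM in the other (log2 fold change -0.48 ± 0.04 SE, limma adjusted p = 7.56e-05). Its paralogue Rbbp7 averaged 123 ± 2.95 RPKM in OMP and 129 ± 0.814 RPKM in Vehicle (SD, n = 3 each) and was not called (limma adjusted p = 0.175), although it was with rescaling to TPM, at -0.15 (limma adjusted p = 0.0132). Of 6 other accessory genes 3 fell. Phf1, a Polycomb-like protein, Lcor and Aebp2 did not pass, with log2 fold changes of 0.26, 0.17 and -0.02. Phf19, a Polycomb-like protein that binds methylated H3, averaged 5.81 ± 0.357 RPKM in OMP and 10.0 ± 0.948 RPKM in Vehicle, a fall of 0.73 on the log2 scale. Epop fell by 0.31 and Mtf2 by 0.22. The call for Epop was lost without Vehicle replicate 1 (limma adjusted p = 0.0525) and with quantile normalization (0.0589). That for Mtf2 was lost without OMP replicate 1 (limma adjusted p = 0.056) or Vehicle replicates 1 (0.0741) or 2 (0.0628), with median-of-ratios scaling (0.127) and with quantile normalization (0.0971).

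Of the CBX family, Cbx6 and Cbx2, paralogues of Cbx7 and Cbx8, fell. Cbx6 had 6.90, 5.82 and 6.67 RPKM in OMP, against 12.6, 11.4 and 11.5 RPKM in Vehicle (log2 fold change -0.82 ± 0.09 SE, limma adjusted p = 0.000239). Cbx2 averaged 1.26 ± 0.51 RPKM in OMP and 2.59 ± 0.58 RPKM in Vehicle. The Cbx2 call, from 52 and 118 reads, was lost without OMP replicate 1 (limma adjusted p = 0.0858), without Vehicle replicate 1 (0.127), 2 (0.0795) or 3 (0.0517), with the replicate block (0.073), with no filter (0.103), with median-of-ratios scaling (0.0539) and with quantile normalization (0.0694).

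The summed level of the 6 PCGF genes was near equal, at 81.8 ± 5.98 RPKM in OMP and 81.1 ± 1.43 RPKM in Vehicle, but its makeup differed. Pcgf6, a subunit of a variant PRC1, rose, with 20.6, 18.3 and 20.4 RPKM in OMP against 15.3, 14.6 and 14.8 RPKM in Vehicle (log2 fold change 0.39 ± 0.07 SE, limma adjusted p = 0.0022). Pcgf5, of another variant PRC1, and Pcgf2, the closest paralogue of Bmi1, fell by 0.41 and 0.43 on the log2 scale. The call for Pcgf2 was lost without Vehicle replicate 3 (limma adjusted p = 0.0509) and with quantile normalization (0.0542). Bmi1 was the largest part of the sum, at 36.5% to 38.7% in OMP libraries and 32.4% to 36.3% in Vehicle libraries.

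**Figure D4:**
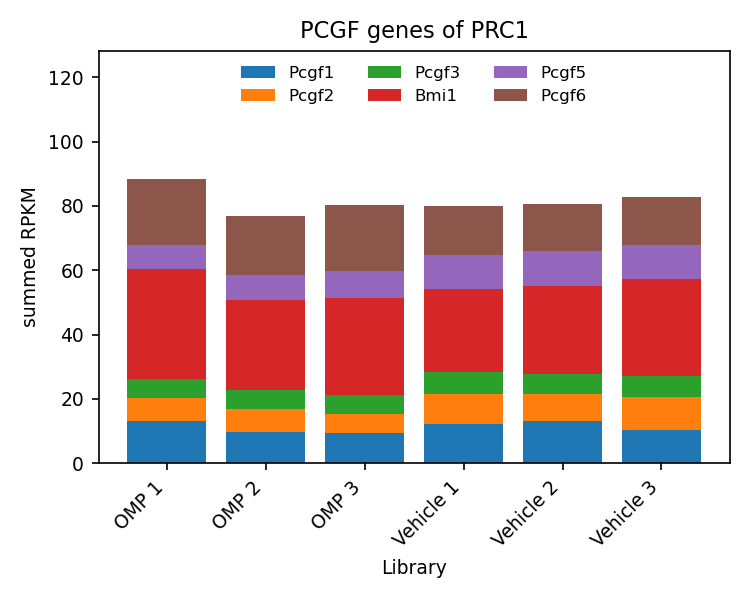
Summed RPKM of the PCGF genes in each library, stacked by gene, with OMP libraries left of Vehicle libraries. The sums are of like height, with a larger Pcgf6 layer in OMP.

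PHC and SCM proteins help to polymerise canonical PRC1. Among their 5 tested genes Phc2 was called lower, beside 27.5% of all genes tested, and Phc1 is given as values only. Phc2 fell, with 15.2 ± 0.323 RPKM in OMP and 20.5 ± 2.13 RPKM in Vehicle. Phc1 had 0.64 ± 0.039 RPKM in OMP and 2.06 ± 0.681 RPKM in Vehicle from 29 and 105 reads. Phc1 met the filter through the Vehicle libraries alone, so its difference is given as values and not as a test. Of 10 tested variant PRC1 genes 4 rose and 1 fell, beside 15.4% and 27.5% of all genes tested. Mga, a DNA-binding subunit, had 13.2, 10.8 and 10.96 RPKM in OMP, against 7.01, 8.39 and 7.28 RPKM in Vehicle (log2 fold change 0.59 ± 0.11 SE, limma adjusted p = 0.00273). Usp7, a deubiquitinase found with variant PRC1, averaged 90.5 ± 1.59 RPKM in OMP and 72.2 ± 0.579 RPKM in Vehicle, and the corepressor gene Bcor averaged 32.0 ± 1.82 RPKM in OMP and 25.3 ± 0.431 RPKM in Vehicle. Bcorl1 rose by 0.46 on the log2 scale, a call that was lost without OMP replicate 1 (limma adjusted p = 0.0513) or Vehicle replicate 1 (0.054) and with no filter (0.0517). E2f6, the DNA-binding partner of Mga in the same complex, fell by 0.29.

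Among genes tied to the removal of Polycomb marks 1 was called, beside 43% of all genes tested. Of 7 tested genes of PR-DUB, the complex that removes ubiquitin from histone H2A, Foxk2 fell. Foxk2, a transcription factor that binds the complex, had 20.2 ± 0.788 RPKM in OMP and 30.0 ± 0.98 RPKM in Vehicle (log2 fold change -0.56 ± 0.06 SE, limma adjusted p = 0.000131). Bap1, Asxl1 and Asxl2 of PR-DUB did not pass (limma adjusted p = 0.772, 0.0714 and 0.142). Mbd5 did not pass at -0.47 on the log2 scale (limma adjusted p = 0.0616), but did without OMP replicate 1 (0.0426), with rescaling to TPM (0.0362) and with voom on recovered reads (0.00112). The H3K27 demethylase genes Kdm6a and Kdm6b were not called (limma adjusted p = 0.776 and 0.245). Kdm6b passed with median-of-ratios scaling (0.0347) and quantile normalization (0.0367), at a log2 fold change of 0.18 in each.

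Cdkn2a and Cdkn2b, cell cycle inhibitor genes that Polycomb is known to silence, rose with OMP. Cdkn2a had 40.9, 40.9 and 44.5 RPKM in OMP, against 35.6, 33.9 and 35.2 RPKM in Vehicle (log2 fold change 0.27 ± 0.05 SE, limma adjusted p = 0.00412). The gene row does not separate its Ink4a and Arf transcripts. Cdkn2b had 9.86, 7.88 and 7.72 RPKM in OMP, against 4.42, 6.84 and 4.73 RPKM in Vehicle (log2 fold change 0.64 ± 0.17 SE, limma adjusted p = 0.015). Its call was lost without OMP replicate 1 (limma adjusted p = 0.0542), Vehicle replicate 1 (0.0501) or Vehicle replicate 3 (0.0502). Cdkn1c was under the filter, with 0 reads in OMP and 4 in Vehicle. Of 14 developmental regulators that Polycomb silences in other tissues, among them Pax6, Gata4 and Hoxd13, none was tested, and no value exceeded 0.159 RPKM, so no release of these genes was detectable at this depth.

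Genes of cell division and of myeloid maturation also moved in these libraries. Their counts stand beside 27.5% lower and 15.4% higher with OMP among all genes tested, and the lists were chosen with earlier results known. All 14 proliferation genes listed fell, with a summed level of 842 to 843 RPKM in OMP and 1327 to 1344 RPKM in Vehicle, and the smallest p was that of Rrm2, a ribonucleotide reductase subunit, which averaged 68.6 ± 1.95 RPKM in OMP and 169.7 ± 2.20 RPKM in Vehicle (SD, n = 3 each; limma adjusted p = 1.38e-07). Of 8 progenitor genes 6 fell, with a summed level of 1169 to 1279 RPKM in OMP and 2786 to 2867 RPKM in Vehicle. Most of that sum came from the granule protease genes Elane, Ctsg and Prtn3, which averaged 993, 989 and 586 RPKM in Vehicle. Prtn3 had a log2 fold change of -1.69. Hoxa9 and Meis1 did not pass, with log2 fold changes of 0.03 and 0.12 (limma adjusted p = 0.7495 and 0.2212). All 8 neutrophil maturation genes were called higher, with a summed level of 8908 to 9425 RPKM in OMP and 2648 to 2757 RPKM in Vehicle. The alarmin gene S100a9 had a log2 fold change of 1.99. Ltf, counted among the 8, met the filter only because it was high in OMP, so its difference is given as values and not as a test. It had 7.51, 6.36 and 9.21 RPKM in OMP and 0.780, 1.07 and 0.515 RPKM in Vehicle. The part of these gene groups in the differences of the Polycomb genes and of Cdkn2a and Cdkn2b was not tested.

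**Figure D5:**
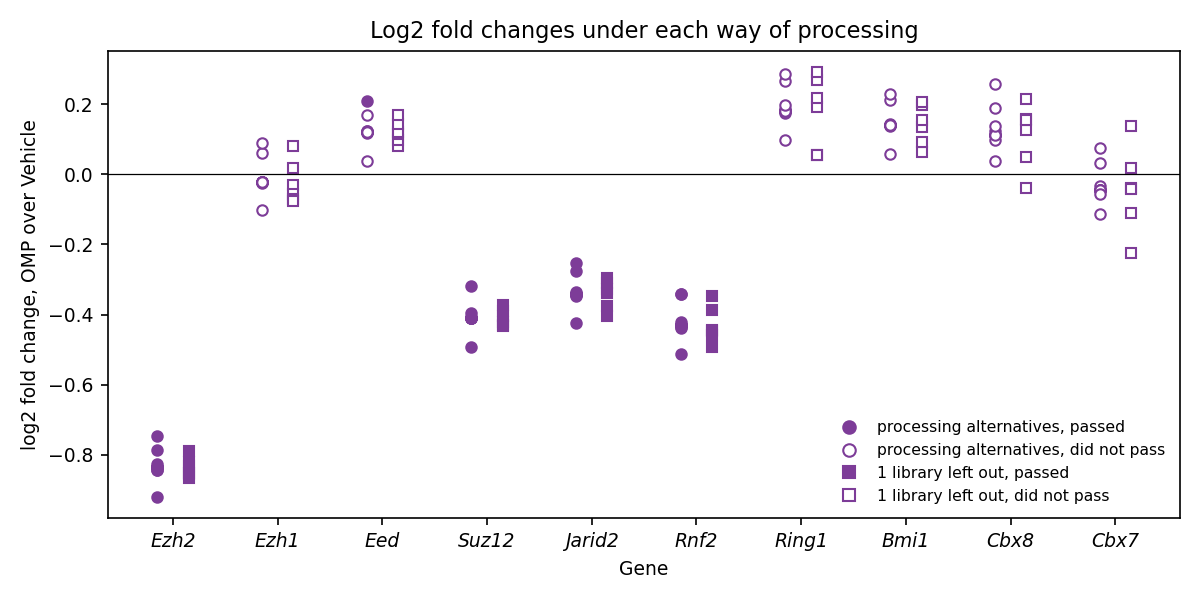
Log2 fold change of OMP over Vehicle for each of the 10 genes under the main processing and its alternatives (circles) and with 1 library left out (squares), filled where the adjusted p passed. Ezh2, Suz12, Jarid2 and Rnf2 stay below 0 and filled throughout, and the 1 filled point above 0 is Eed with median-of-ratios scaling.

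The calls of Ezh2, Suz12, Jarid2 and Rnf2 held under all 16 alternatives, as the plot of fold changes by processing shows. Across them the log2 fold change ran from -0.92 to -0.75 for Ezh2, from -0.49 to -0.32 for Suz12, from -0.42 to -0.25 for Jarid2 and from -0.51 to -0.34 for Rnf2.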

How the data were processed

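Poly(A) RNA of 3 OMP and 3 Vehicle libraries was sequenced after TruSeq preparation, per the labels' protocols. The authors deposited RPKM, 1 column per library, matched to libraries by title. Tools listed in the submitters' processing notes are STAR 2.5.3a, featureCounts 1.6.3, Trimmomatic 0.36 and FastQC 0.11.5, and the build listed is mm10 (GRCm38). For the annotation release, strand setting and filters no statement was found (not given in the sources used here).

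Whole reads came back from the RPKM steps for 99.99% of 19970 genes above 0 (relative tolerance 1e-06), with 94.59% of gene lengths equal to an annotated transcript. Read counts cover counting error only. Positions and exon overlaps came from GENCODE release M21 (GRCm38), near-identical genes from BLAST 2.17.0 and promoters from RefSeq.

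limma 3.58.1 in R 4.3.3 fitted log2(RPKM + 0.5) over all 6 libraries with a mean-variance trend and no covariates, two-sided, adjusted over all genes tested. The procedure was tested on simulated data. Libraries of a group differed by more than sampling noise (chi-square per degree of freedom 1.19 to 1.57), so each was kept as its own replicate. Plots used matplotlib 3.10.9.

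The members and gene lists were chosen with earlier results of these data known. Named genes were all 10 members, the 2 smallest p-values in each role of the wider list, every called gene of that list with a log2 fold change of at least 0.5 in size, the Cdkn targets and the leading gene of each list on cell state. Alternatives were pseudocounts of 1 and 0.1, no filter, quantile normalization, median-of-ratios scaling, rescaling to TPM, a filter at 5 RPKM, a block for replicate number, a robust prior, limma-voom on recovered reads and each library left out. Itgam, whose symbol stands on more than 1 row, was not used, and some listed genes that enter the counts are not reported here by name.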

Additional observations from a re-analysis of the deposited data

How the results depend on the processing

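Over the 16 alternatives 3968 to 5332 genes were called, against 4735 as reported, and the count of called members stayed at 4 except for 5 with median-of-ratios scaling. The wider Polycomb list had 14 to 21 calls, against 18. Of 158 values for members under alternatives, 148 kept their direction and side of the threshold, 1 gained a call and 9 changed sign, all of the 9 for genes without a call in any setting. With median-of-ratios scaling Ezh1 was 0.0622, Cbx7 0.0311, Rbbp7 0.0249 and Kdm6a 0.0495 on the log2 scale, and with quantile normalization Ezh1 was 0.0889, Cbx7 0.0748 and Kdm6a 0.0610. With 1 library left out Ezh1 ran from -0.0773 to 0.0797, Cbx7 from -0.225 to 0.14, Cbx8 from -0.0382 to 0.216 and Kdm6a from -0.0939 to 0.0390; the cause was not tested. For the wider genes named, 317 of 348 values were kept, 20 lost a call, 6 gained one and 5 changed sign. Cbx7, Cbx8, Cbx2, Phc1, Bcorl1 and Mbd5 had no value with the filter at an RPKM of 5. The block lost the call of Cbx2 among the genes named. Replicate numbers are shared between groups, but the correlation between deviations of libraries with the same number was -0.00244, 0.0155 and 0.00694, and 0 of 6 libraries correlated best with its own number. With the replicate block 4445 genes, 4 members and 17 wider genes were called. All differences in the log2 ratios moved by less than the spread between libraries, and the smallest p that 3 against 3 libraries allow is 0.1. Depth limits Cbx7, Cbx8, Cbx2 and Phc1.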
